A study of Homo sapiens with 6 samples.

Results

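The genes described here encode molecular chaperones of the HSP70, HSP90, small heat shock protein, DNAJ (HSP40) and chaperonin families, in 786-O cells. They were taken by symbol: all rows of the count table named HSPA, HSPB, HSP90 or DNAJ with a number, the CCT subunits of the cytosolic chaperonin, and TCP1, HSPD1, HSPE1 and HSPH1. This rule found 81 of 20020 genes, 45 of them DNAJ genes, and used no measured value. Polyadenylated RNA was sequenced from 786-O, an established human line of clear cell renal carcinoma, in 3 samples with the genotype puro and 3 with the genotype shIGF2BP2. The puro samples serve as the control, and the labels do not spell out what puro stands for. In the shIGF2BP2 samples a short hairpin RNA targets IGF2BP2, whose product binds RNA carrying N6-methyladenosine. All samples were grown alike in RPMI1640 with serum, with no other agent named. The deposited table holds 9 columns, called libraries here: 3 for puro and 6 for the knockdown, whose names carry a first number of 2 or 3 and a last number of 1 to 3. The labels do not explain the first number, so the columns are called set 2 and set 3, and whether the sets are different hairpins is not stated. The last number was taken to be the replicate, so that each knockdown sample has 1 column in each set, and the fit of 9 columns treats these as separate. If the first number marked the sample instead, each set would be 1 sample, and every p-value for a set would rest on columns of a single sample. No label states that the samples are independent cultures, and the p-values therefore reflect the spread among these libraries alone, which may be technical.

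Chaperones bind unfolded or aggregation-prone segments of other proteins. HSP70 proteins do so in cycles of ATP hydrolysis that DNAJ proteins start and nucleotide exchange factors end, HSP90 proteins finish the folding of kinases and receptors, and chaperonins enclose a substrate in a barrel. Cells under heat or proteotoxic stress raise the cytosolic members through the transcription factor HSF1, which binds inverted repeats of GAA, while stress in the endoplasmic reticulum (ER) raises the ER members through a separate pathway.

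Short promoter stretches are shown for 8 members described below, because they carry elements named for the response to heat or to ER stress. HSPA1A, HSPA1B, HSPB1 and HSPH1, also described in full, hold no match to the full pattern of either element in this window. The stretches come from RefSeq promoters (GRCh38.p14, 250 bases before to 50 after each start), where 73 of the 81 members had an entry. Capitals mark the letters of a motif, on the strand of the gene. The first 6 hold the 3-unit heat shock element GAANNTTCNNGAA or its reverse complement.
HSP90AA1: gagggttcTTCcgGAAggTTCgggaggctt
HSP90AB1: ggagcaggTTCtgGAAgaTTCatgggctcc
HSPA8: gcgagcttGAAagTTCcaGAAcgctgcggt
HSPD1: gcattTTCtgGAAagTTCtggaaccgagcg
DNAJA1: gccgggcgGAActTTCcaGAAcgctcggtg
DNAJB6: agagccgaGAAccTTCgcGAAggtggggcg
HSPA5: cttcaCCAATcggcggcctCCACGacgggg
HSP90B1: cctgaCCAATcggaaggagCCACGcttcgg
These lie at chr14:102087111-102087140 on the minus strand (HSP90AA1), chr6:44247770-44247799 on the plus strand (HSP90AB1), chr11:123062345-123062374 on the minus strand (HSPA8), chr2:197500061-197500090 on the minus strand (HSPD1), chr9:33025268-33025297 on the plus strand (DNAJA1) and chr7:157336865-157336894 on the plus strand (DNAJB6). The last pair holds the ER stress element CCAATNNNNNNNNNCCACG, at chr9:125241385-125241414 on the minus strand (HSPA5) and chr12:103930211-103930240 on the plus strand (HSP90B1). With both strands searched, the 3-unit element stood in 7 of the 73 member promoters (9.59%) and in 0.533% of the promoters of 15397 genes of the table, HSPA6 being the seventh member. Its shorter parts, GAANNTTC and TTCNNGAA, which it contains, stood in 26.0% and 20.5% of member promoters and in 7.42% and 8.84% of all. Members holding the part GAANNTTC included HSPA1A, HSPA1B and HSPB1. The ER stress element stood in 2 member promoters (2.74%) and in 0.136% of all. A match describes letters in this window and does not show that a factor binds there.

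The libraries held 33821216 to 47470019 counts. Gene values are given as CPM, a TMM-scaled read count, and coordinates are on GRCh38. IGF2BP2 lies on chromosome 3, 185643739 to 185825056, minus strand. Its level in puro was 76.8 ± 2.10 CPM (mean ± SD, n = 3), with 23.9 ± 1.11 CPM in set 2 and 33.7 ± 2.26 CPM in set 3, which is 31.2% and 43.9% of the puro mean. The biological coefficient of variation was 7.27% in puro, 5.97% in set 2 and 8.55% in set 3. Of 7 renal markers all had counts, with VIM the most abundant, but CA9, a hypoxia-induced enzyme often high in clear cell carcinoma, was near 0 at 0.636 ± 0.153 CPM in puro. Markers of other cell types together gave 31.8 to 32.7 CPM in the puro libraries, 47.2 to 50.2 CPM in those of set 2 and 29.2 to 32.3 CPM in those of set 3, with counts for 11 of 11 genes. Without CD68, a lysosomal protein, the other 10 summed to 6.03 to 7.97, 3.27 to 4.34 and 4.63 to 5.89 CPM. Their part in the results below was not tested. Bulk values cannot tell fewer cells of a kind from less RNA per cell. Counts from mitochondrially encoded genes made up 2.26% to 2.40% of puro libraries, 3.13% to 3.29% of set 2 and 2.65% to 2.80% of set 3.

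Of the 81 members, 73 passed the filter on low counts and were tested. The 8 others were DNAJB8, DNAJC25-GNG10, DNAJC5B, DNAJC5G, HSPB2, HSPB3, HSPB7 and HSPB9, and 4 of them had no count in any library. A gene is called here when its adjusted p in edgeR's quasi-likelihood test, by Benjamini-Hochberg over all 13346 genes tested, was under 0.05, with no minimum fold. In set 2, 34 of the 73 were lower than in puro and 16 were higher. Over all tested genes, 29.9% were lower and 30.0% higher (59.9% called in all). The median log2 fold change of the members was -0.22, against 0.0060 over all genes. In set 3, 19 members were higher and 18 lower, against 28.0% and 27.6% of all genes (55.6% in all), with a median of -0.0037 against 0.0040. Both comparisons use the same 3 puro libraries. Between the knockdown sets, 42 were higher in set 3 than in set 2 and 12 were lower, where 29.8% and 30.8% of all genes were (60.7% in all). With library totals in place of TMM factors this split was 29 higher and 18 lower, since that scaling moved the median of all genes from -0.022 to -0.15.

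**Figure D1:**
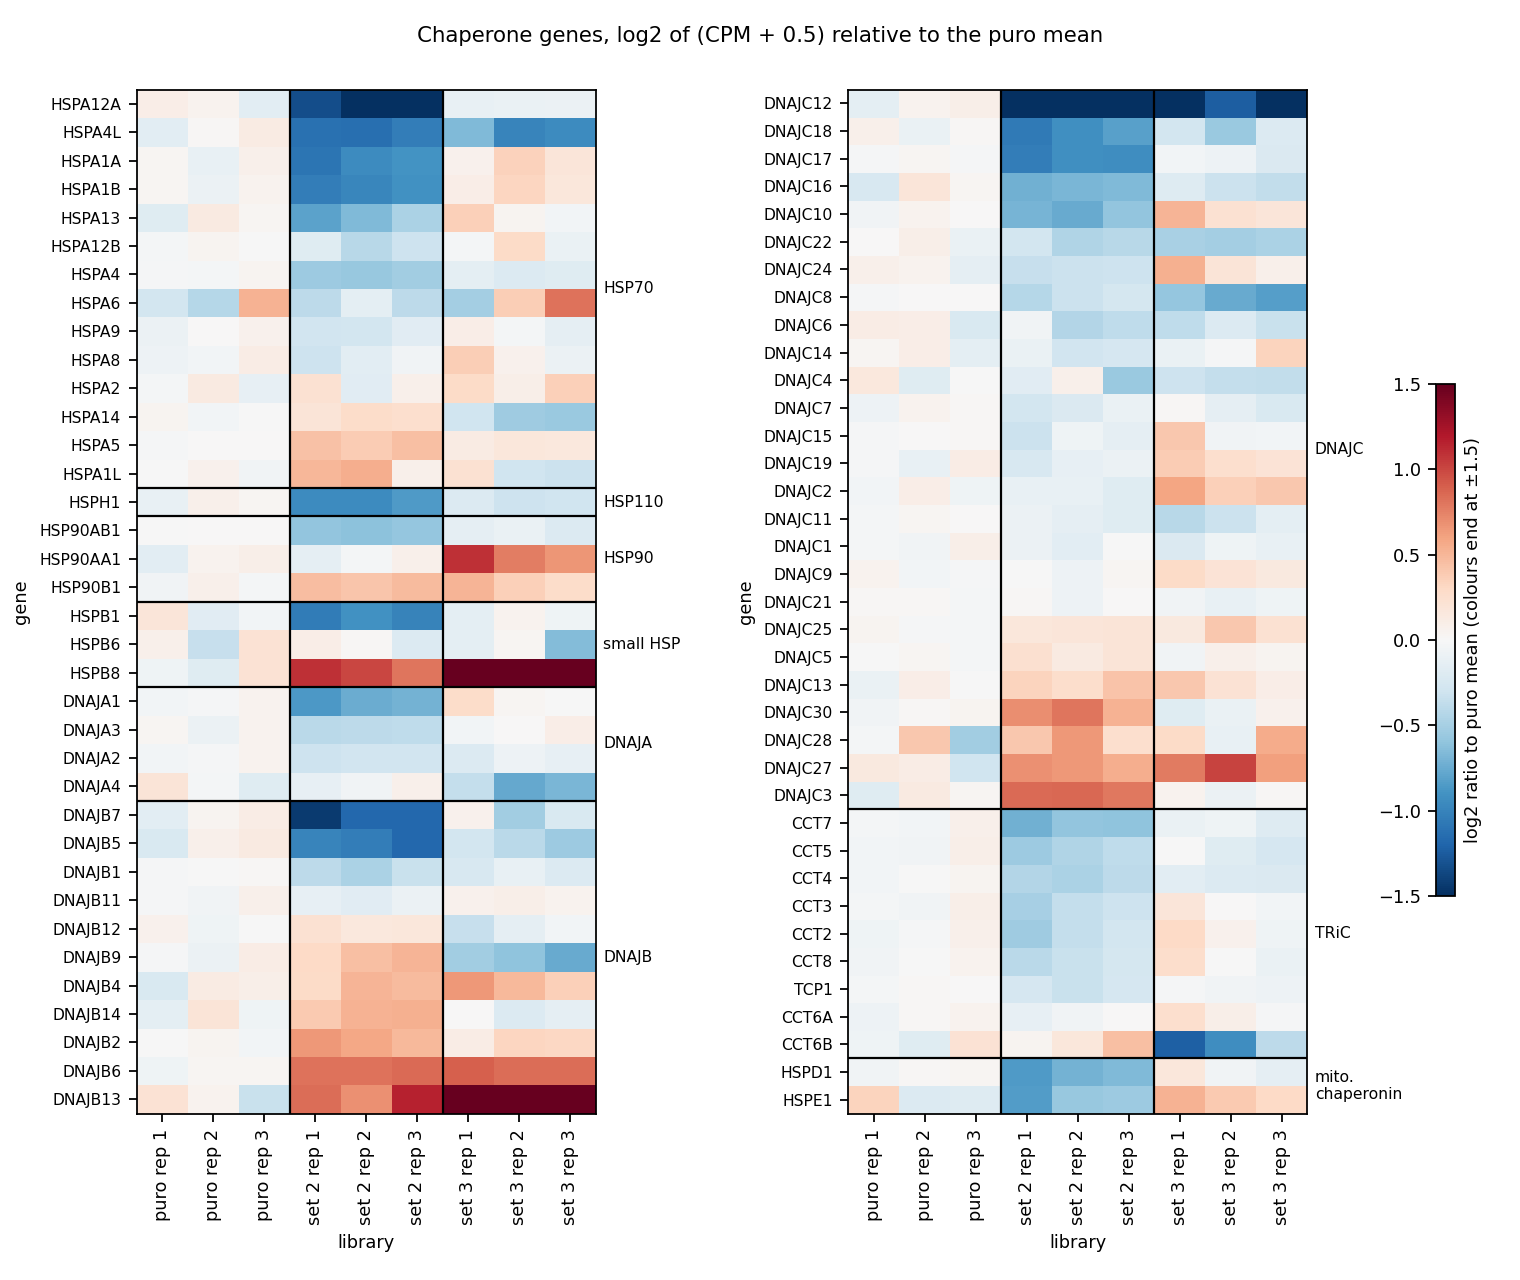
Colour gives the log2 of (CPM + 0.5) relative to the puro mean for each of the 73 tested chaperone genes (rows, by family) in each library (columns), with colours ending at ±1.5. Blue cells are frequent in the set 2 columns of the HSP70, DNAJA, TRiC and mitochondrial chaperonin genes, and DNAJB6 and HSPB8 are red in all knockdown columns.

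The members spanned a wide range of levels, compared here as FPKM, which divides by gene length. In puro, 18 members stood at 100 FPKM or more, 22 between 10 and 100, 25 between 1 and 10, and 16 below 1. The 6 highest were HSP90AB1, HSPA8, HSP90AA1, HSPB1, HSPD1 and CCT5, which together held 52.4% of the summed FPKM of all members. HSP90AB1, the constitutive cytosolic HSP90, was highest at 1122 ± 8.57 FPKM (SD, n = 3). HSPA8, the constitutive cytosolic HSP70, followed at 952 ± 63.9 FPKM and HSP90AA1, the inducible cytosolic HSP90, at 641 ± 59.3 FPKM. In set 3 HSP90AA1 was the highest member, at 1137 ± 171 FPKM. As a share of all counts, the 81 genes took 2.24%, 2.33% and 2.38% of the puro libraries, 2.01%, 2.08% and 2.15% of set 2, and 2.71%, 2.45% and 2.35% of set 3. Set 2 was thus below puro in every library, while set 3 overlapped puro. In each group 1 library held the highest value for the most members. This was puro replicate 3 for 34 of the 73 tested members (46.6%, against 28.4% of all genes at 1 CPM or more), set 2 replicate 3 for 42 (57.5%, against 35.1%) and set 3 replicate 1 for 42 (57.5%, against 40.1%).

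**Figure D2:**
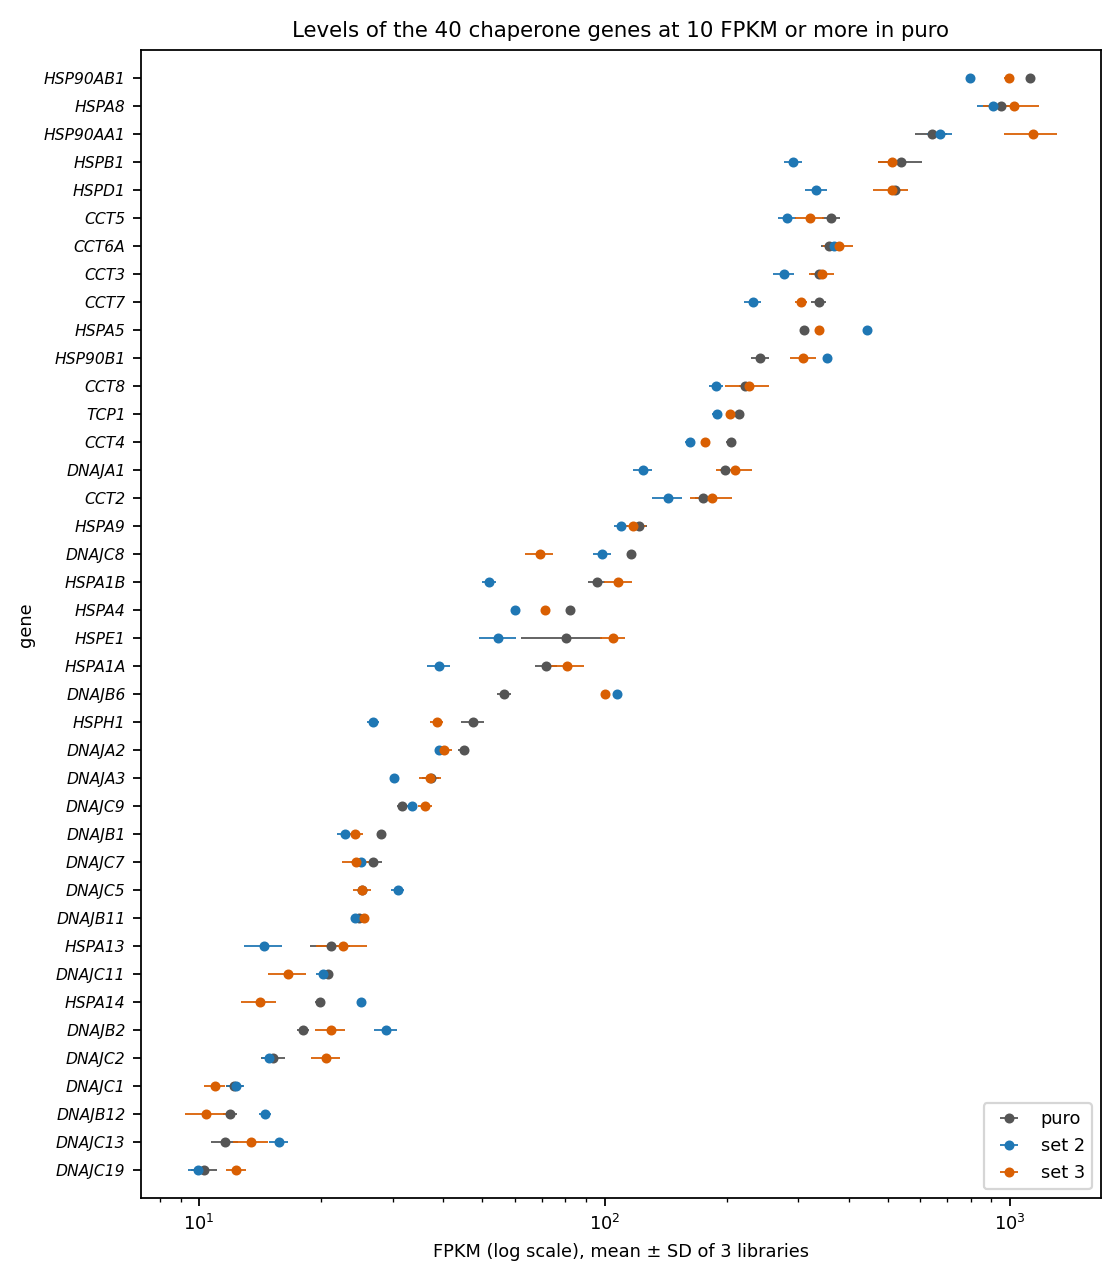
FPKM (log axis; points give the mean and bars the SD of 3 libraries) of the 40 chaperone genes at 10 FPKM or more in puro, for puro, set 2 and set 3. HSP90AB1 is highest in puro and HSP90AA1 in set 3.

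Among the 14 HSP70 genes, 7 fell in set 2 and 2 rose (29.9% and 30.0% of all genes), and in set 3 there were 3 in each direction (27.6% lower and 28.0% higher of all genes). The 3 set 3 rises, of HSPA1A, HSPA1B and HSPA5, were all lost without puro replicate 2 or without set 3 replicate 2. HSPA1A (chromosome 6, 31815464 to 31817946, plus strand) and HSPA1B (chromosome 6, 31827735 to 31830255, plus strand) encode the stress-inducible cytosolic HSP70. HSPA1A stood at 179, 163 and 186 CPM in puro, 82.1, 91.0 and 94.0 in set 2 and 184, 223 and 199 in set 3. HSPA1B stood at 249.6, 230.1 and 255 CPM in puro, 119, 124 and 130.0 in set 2 and 263, 306 and 276 in set 3. All set 2 libraries were below all puro libraries, with means of 50.7% and 50.7% of puro. In set 3, HSPA1A overlapped puro and HSPA1B lay just above it. Against puro, the log2 fold change in set 2 was -0.98 (SE 0.075, adjusted p = 1.23e-11) for HSPA1A and -0.98 (SE 0.069, adjusted p = 2.04e-12) for HSPA1B in edgeR's quasi-likelihood test. The set 3 values were small, at 0.20 (adjusted p = 0.0244) and 0.20 (adjusted p = 0.0123), and neither passed when puro replicate 2 (adjusted p = 0.139 and 0.0772) or set 3 replicate 2 (0.209 and 0.12) was left out. Set 3 exceeded set 2 by 1.18 (SE 0.076, adjusted p = 2.99e-13) and 1.18 (SE 0.069, adjusted p = 4.51e-14). The 2 copies are nearly identical in sequence, and how the counting treated reads that match both is not given in the sources used here. Their FPKM ratio stayed between 0.723 and 0.770 in all 9 libraries, and the pair is not taken here as 2 independent measurements. Counts of called members, in this family and in the lists below, nevertheless include both.

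HSPA8 stood at 2473, 2544 and 2822 CPM in puro, 2109, 2343 and 2521 in set 2 and 3382, 2727 and 2459.5 in set 3, with overlapping groups. Neither set differed from puro by the test, at -0.17 (adjusted p = 0.0914) in set 2 and 0.13 (adjusted p = 0.21) in set 3. Leaving out set 2 replicate 3 or set 3 replicate 1 brought the set 2 value past the threshold (-0.23, adjusted p = 0.0447, and -0.17, adjusted p = 0.0165), and leaving out set 3 replicate 3 did so for set 3 (0.23, adjusted p = 0.0237). The difference between the sets, 0.30 (adjusted p = 0.00403), dropped to 0.16 (adjusted p = 0.0442) without set 3 replicate 1. HSPA6, a strictly inducible HSP70 in human cells, was low, at 0.521, 0.418 and 1.27 CPM in puro, 0.439, 0.620 and 0.442 in set 2 and 0.366, 1.10 and 1.68 in set 3.

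HSPA5 (chromosome 9, 125234853 to 125241330, minus strand) encodes BiP, the HSP70 of the ER and a standard readout of the unfolded protein response. It stood at 1236, 1253 and 1257 CPM in puro, 1689, 1631 and 1704 in set 2 and 1365, 1409 and 1390.3 in set 3. Set 2 was highest, set 3 intermediate and puro lowest, with no overlap between any pair of groups. The log2 fold change was 0.42 (SE 0.058, adjusted p = 4.67e-07) in set 2 and 0.15 (SE 0.058, adjusted p = 0.0262) in set 3, and the value of set 3 against set 2 was -0.27 (SE 0.058, adjusted p = 0.000211). The set 3 rise lost its call when any 1 puro library or set 3 replicate 2 or 3 was left out (adjusted p = 0.0513 to 0.0772), and with library totals as the scaling (0.0646). HSPA9, the mitochondrial HSP70 also called mortalin, stood at 567, 606 and 631 CPM in puro, 493, 498 and 535 in set 2 and 646, 590.1 and 549 in set 3. Set 2 lay below every puro library, with -0.24 (adjusted p = 0.00301), while set 3 overlapped puro, with -0.015 (adjusted p = 0.869). The set 2 call was lost with library totals as the scaling (-0.14, adjusted p = 0.058).

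The remaining HSP70 genes followed different courses. HSPA12A (chromosome 10, 116671192 to 116850236, minus strand), a distant member of the family, stood at 75.3, 73.0 and 63.0 CPM in puro, 27.7, 22.6 and 24.5 in set 2 and 65.0, 66.0 and 66.2 in set 3. Its set 2 libraries were far below the others, while set 3 lay within the puro range. This was the steepest fall in set 2 among members at 5 CPM or more, -1.50 (SE 0.083, adjusted p = 1.55e-14), against -0.10 (adjusted p = 0.298) in set 3. HSPA13, a microsomal HSP70-like protein, had -0.65 (adjusted p = 1.84e-06) in set 2 and 0.13 (adjusted p = 0.26) in set 3. HSPA14, which works at the ribosome with DNAJC2, stood at 36.5, 34.6 and 35.5 CPM in puro, 40.9, 43.1 and 42.3 in set 2 and 28.9, 24.3 and 24.1 in set 3. It was above puro in all set 2 libraries and below puro in all set 3 libraries, with 0.24 (adjusted p = 0.0102) and -0.47 (adjusted p = 2.28e-05). This symbol names a gene at chromosome 10, 14838160 to 14847018, and another at 14838164 to 14871741, both on the plus strand. Which of them the counts belong to is not known. HSPA2, HSPA1L and HSPA12B were not called in any of the 3 comparisons.

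The HSP110 proteins HSPA4, HSPA4L and HSPH1 are nucleotide exchange factors that release substrate from HSP70. All 3 were lower than puro in every knockdown library. Over all genes, 29.9% were called lower in set 2 and 27.6% in set 3. How many genes lay below puro in every knockdown library was not counted. HSPH1 (chromosome 13, 31134974 to 31162388, minus strand) stood at 253, 287 and 279 CPM in puro, 141, 142 and 152 in set 2 and 237, 221 and 222 in set 3. Set 2 held the lowest values and set 3 lay between, without overlap. The log2 fold change was -0.91 (SE 0.066, adjusted p = 3.31e-12) in set 2 and -0.27 (SE 0.065, adjusted p = 0.000898) in set 3. HSPA4L (chromosome 4, 127781821 to 127840733, plus strand) stood at 72.7, 82.7 and 88.8 CPM in puro, 37.1, 37.0 and 39.4 in set 2 and 51.4, 40.9 and 41.9 in set 3. Here both sets were far below puro, at -1.11 (SE 0.087, adjusted p = 1.73e-11) and -0.86 (SE 0.086, adjusted p = 2.18e-09). Their difference, 0.24 (adjusted p = 0.0182), fell to 0.13 (adjusted p = 0.151) without set 3 replicate 1, and it missed the threshold without set 2 replicate 1 (adjusted p = 0.0518) or 2 (0.062). HSPA4 stood at 394, 392 and 413 CPM in puro, 273, 269 and 278 in set 2 and 361, 346 and 352 in set 3, with -0.55 (adjusted p = 9.45e-09) in set 2 and -0.18 (adjusted p = 0.0121) in set 3. The set 3 value of HSPA4 missed the threshold without puro replicate 3 (adjusted p = 0.0735) or set 3 replicate 2 (0.0531).

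**Figure D3:**
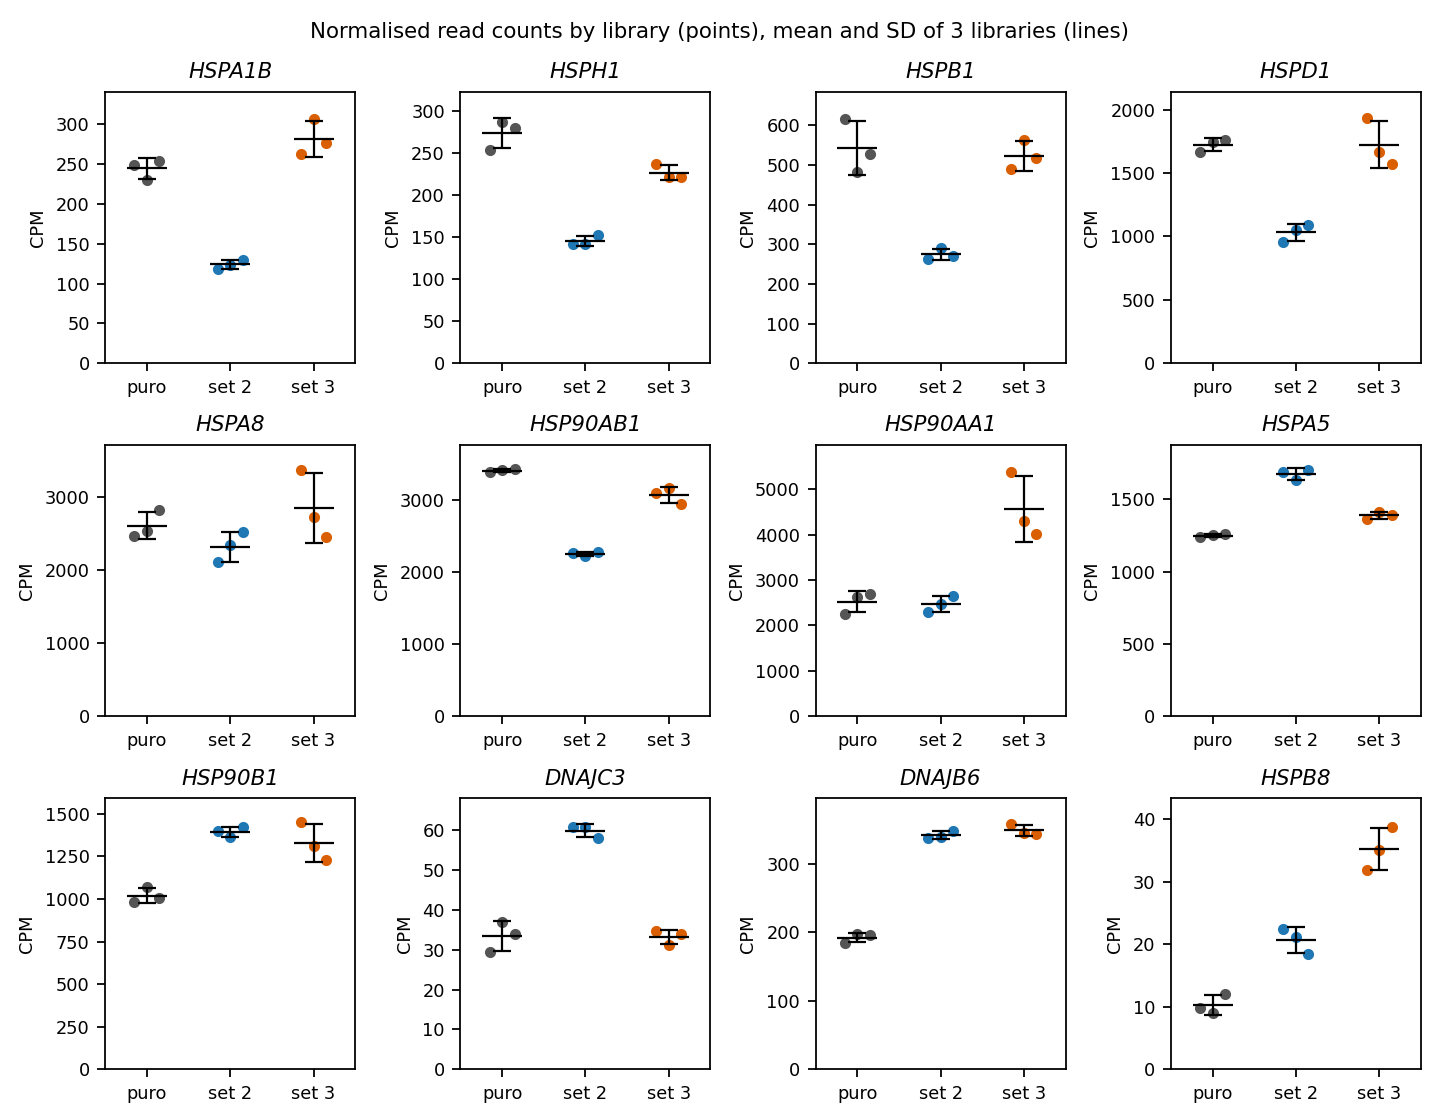
CPM of 12 chaperone genes in each library (points), with the mean and SD of 3 libraries (lines), for puro, set 2 and set 3; each axis starts at 0. HSPA1B, HSPH1, HSPB1, HSPD1 and HSP90AB1 are lowest in set 2, HSP90AA1 is high in set 3 alone, and DNAJB6 is high in both sets.

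The 3 members named HSP90 each behaved differently. HSP90AA1 (chromosome 14, 102080738 to 102139699, minus strand) stood at 2261, 2626 and 2693 CPM in puro, 2294, 2471 and 2662 in set 2 and 5386, 4311 and 4008 in set 3. All set 3 libraries were above all others, with replicate 1 the highest, and set 2 overlapped puro. Set 3 exceeded puro by 0.85 (SE 0.085, adjusted p = 2.45e-09) and set 2 by 0.88 (SE 0.085, adjusted p = 1.05e-09), while set 2 against puro gave -0.030 (adjusted p = 0.782). HSP90AB1 stood at 3378, 3404 and 3419.6 CPM in puro, 2263, 2221 and 2268 in set 2 and 3091, 3163 and 2942 in set 3. All 3 groups were separate here, with set 2 lowest and puro highest. The log2 fold change was -0.60 (SE 0.058, adjusted p = 1.17e-09) in set 2 and -0.15 (SE 0.058, adjusted p = 0.0288) in set 3. The small set 3 fall was not called when any 1 puro library, set 2 replicate 3 or set 3 replicate 3 was left out (adjusted p = 0.0503 to 0.126). As FPKM, the ratio of HSP90AA1 to HSP90AB1 was 0.514, 0.593 and 0.606 in puro, 0.779, 0.856 and 0.902 in set 2, and 1.34, 1.05 and 1.05 in set 3. By FPKM the inducible isoform thus stood below the constitutive one in puro and set 2 and above it in set 3, in every library. By CPM it was above the constitutive one in set 2 as well, so the order there depends on the division by gene length.

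HSP90B1 (chromosome 12, 103930107 to 103953645, plus strand) encodes GRP94, the HSP90 of the ER. It stood at 984, 1072 and 1003 CPM in puro, 1401, 1363 and 1421 in set 2 and 1451, 1310.4 and 1229 in set 3. Both sets were above puro without overlap, at 0.45 (SE 0.065, adjusted p = 1.17e-06) in set 2 and 0.38 (SE 0.065, adjusted p = 1.51e-05) in set 3. The sets differed from each other by -0.068 (adjusted p = 0.377), and by -0.13 (adjusted p = 0.0471) without set 3 replicate 1.

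Of the 7 small heat shock genes, which encode ATP-independent holdases, 3 were tested. HSPB1 (chromosome 7, 76302544 to 76304295, plus strand), the abundant HSP27, stood at 617, 483 and 527 CPM in puro, 263, 289.7 and 272 in set 2 and 489, 564 and 517 in set 3. Set 2 was well below puro, and set 3 overlapped puro. The log2 fold change was -0.98 (SE 0.077, adjusted p = 1.64e-11) in set 2 and -0.052 (SE 0.076, adjusted p = 0.581) in set 3, and the sets differed by 0.93 (SE 0.076, adjusted p = 4.59e-11). HSPB8 (chromosome 12, 119178642 to 119221131, plus strand), which works with BAG3 in the autophagic removal of misfolded proteins, stood at 9.87, 8.99 and 12.0 CPM in puro, 22.5, 21.1 and 18.4 in set 2 and 31.9, 35.0 and 38.7 in set 3. It was low in puro, higher in every set 2 library and highest in every set 3 library. The rises were 1.00 (SE 0.11, adjusted p = 1.06e-08) and 1.78 (SE 0.11, adjusted p = 1.49e-13), the largest in either set among members at 5 CPM or more. HSPB6 was near 0, at no more than 0.414 CPM in any library, and was not called.

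The DNAJA genes encode the general partners of HSP70. In set 2, 3 of 4 fell, where 29.9% of all genes were lower. In set 3, where 27.6% were, only DNAJA4, at under 1 CPM, was lower. That call was lost without puro replicate 1 or set 3 replicate 2 or 3. DNAJA1 stood at 456, 463 and 484 CPM in puro, 256, 280.2 and 286 in set 2 and 566, 479 and 466 in set 3. Its set 2 libraries lay below all others, and set 3 overlapped puro. Its fold change on the log2 scale was -0.77 (SE 0.071, adjusted p = 4.48e-10) in set 2 and 0.11 (SE 0.071, adjusted p = 0.208) in set 3. DNAJA2 had -0.30 (adjusted p = 0.000257) in set 2 and -0.14 (adjusted p = 0.0701) in set 3. DNAJA3, a mitochondrial form, had -0.40 (adjusted p = 1.33e-05) and 0.025 (adjusted p = 0.778).

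Of the 11 DNAJB genes tested, 7 were higher and 3 lower in set 2 (median log2 fold change 0.44), where 30.0% and 29.9% of all genes were. In set 3, 4 were higher and 3 lower, against 28.0% and 27.6%. DNAJB6 (chromosome 7, 157335381 to 157417439, plus strand), which keeps polyglutamine proteins from aggregating, stood at 184, 197 and 196 CPM in puro, 338, 339 and 348 in set 2 and 358, 345 and 343 in set 3. The 6 knockdown libraries lay close together, all well above puro. It rose by 0.83 (SE 0.061, adjusted p = 4.22e-12) in set 2 and 0.86 (SE 0.061, adjusted p = 2.56e-12) in set 3, and the difference between the sets was 0.029 (adjusted p = 0.697). DNAJB1, the classical heat-inducible HSP40, stood at 195, 196 and 199.6 CPM in puro, 150.2, 142 and 156 in set 2 and 167, 182 and 171 in set 3. It was lower in both sets, with -0.40 (adjusted p = 5.07e-06) and -0.18 (adjusted p = 0.0146), and the set 3 value missed the threshold without puro replicate 3 (adjusted p = 0.0576). DNAJB2, a neuron-enriched form, had 0.58 (adjusted p = 1.55e-07) and 0.25 (adjusted p = 0.00486). DNAJB4 had 0.44 (adjusted p = 0.000265) and 0.51 (adjusted p = 4.69e-05). DNAJB5 stood at 11.7, 14.5 and 15.1 CPM in puro, 6.66, 6.46 and 5.79 in set 2 and 11.3, 10.3 and 9.25 in set 3, lowest in set 2 and lower than every puro library in set 3. DNAJB13, a protein of sperm flagella, was the largest rise by fold but stayed under 5 CPM, at 0.493, 0.388 and 0.177 CPM in puro, 1.02, 0.876 and 1.40 in set 2 and 3.43, 2.23 and 2.37 in set 3.

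**Figure D4:**
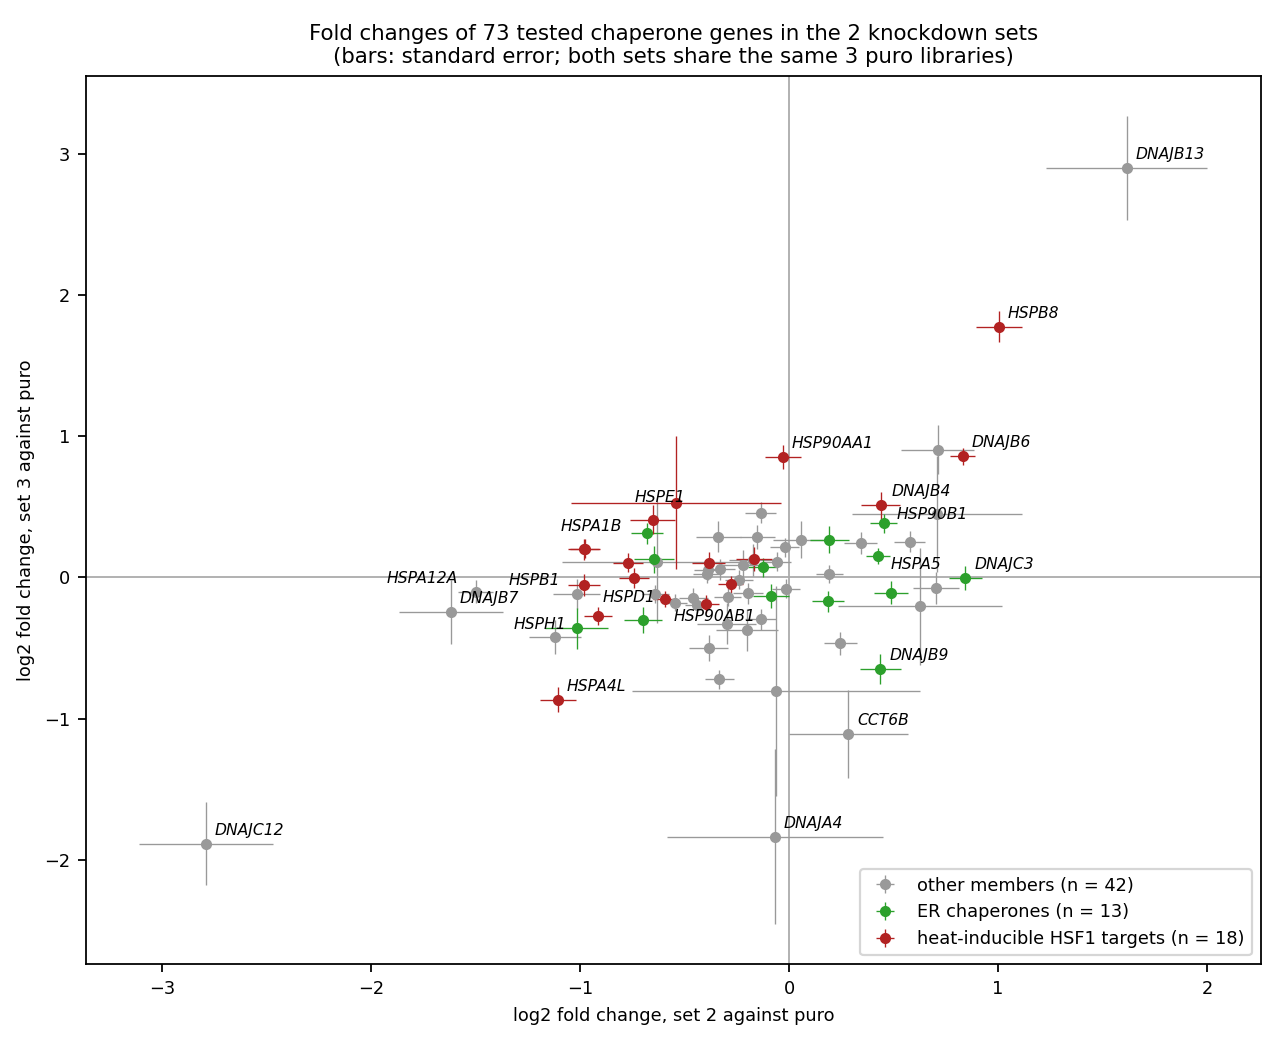
Log2 fold change of each tested chaperone gene in set 2 (horizontal axis) and set 3 (vertical axis) against the same 3 puro libraries. Bars are standard errors, red points are members listed as heat-inducible HSF1 targets, and green points are ER chaperones. HSPA1B, HSPB1, HSPH1, HSPD1 and HSPE1 lie left of 0, HSP90AA1 lies above 0 for set 3 and near 0 for set 2, and DNAJB6, HSPB8 and HSP90B1 lie to the upper right.

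The DNAJC family is the most varied, and its 26 tested members held 5 rises and 9 falls in set 2, and 8 rises and 7 falls in set 3. Over all genes 30.0% rose and 29.9% fell in set 2, and 28.0% and 27.6% in set 3, so these counts lie near the background. DNAJC3 (chromosome 13, 95677139 to 95794989, plus strand), the ER-resident p58IPK, stood at 29.4, 36.9 and 34.0 CPM in puro, 60.8, 61.0 and 58.1 in set 2 and 34.7, 31.3 and 33.9 in set 3. Set 2 was above all other libraries, and set 3 overlapped puro. The test gave 0.84 (SE 0.081, adjusted p = 9.55e-10) in set 2 and -0.0037 (SE 0.082, adjusted p = 0.975) in set 3. DNAJC10, an ER disulfide reductase also called ERdj5, stood at 179, 193 and 187 CPM in puro, 115, 110.0 and 124 in set 2 and 265, 219 and 211 in set 3. It was lowest in set 2 and highest in set 3, with no overlap between any pair of groups. The fall was -0.68 (SE 0.076, adjusted p = 1.46e-08) and the rise 0.31 (SE 0.075, adjusted p = 0.000879), which dropped to 0.21 (adjusted p = 0.00528) without set 3 replicate 1.

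DNAJC2, a ribosome-bound J protein, stood at 73.0, 80.7 and 71.8 CPM in puro, 69.4, 69.5 and 66.1 in set 2 and 113, 96.7 and 99.9 in set 3. Set 3 was above the others, with 0.46 (adjusted p = 5.97e-06) against puro, and set 2 gave -0.14 (adjusted p = 0.11). DNAJC8, which associates with the spliceosome, stood at 220.3, 225 and 224 CPM in puro, 166, 179 and 186 in set 2 and 149, 131 and 126 in set 3. It fell in both sets, more in set 3, at -0.33 (adjusted p = 0.000134) and -0.72 (adjusted p = 9.85e-10). DNAJC17, another nuclear J protein, stood at 12.3, 12.8 and 12.4 CPM in puro, 5.83, 6.37 and 6.31 in set 2 and 12.1, 11.8 and 10.7 in set 3. Its set 2 libraries were far below the others, and set 3 lay just under puro, at -1.02 (adjusted p = 1.43e-08) against -0.12 (adjusted p = 0.378) in set 3. DNAJC30, a mitochondrial J protein, stood at 9.98, 10.5 and 10.7 CPM in puro, 17.1, 18.5 and 15.2 in set 2 and 9.08, 9.69 and 10.9 in set 3, with every set 2 library above the others, at 0.70 (adjusted p = 3.56e-06) against -0.072 (adjusted p = 0.607) in set 3.

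DNAJC18 had -1.02 (adjusted p = 1.52e-06) in set 2 and -0.36 (adjusted p = 0.0354) in set 3, where the call was lost without puro replicate 1 (adjusted p = 0.11), puro replicate 3 (0.0789) or set 3 replicate 2 (0.184). DNAJC22 had -0.39 (adjusted p = 0.000805) and -0.50 (adjusted p = 5.37e-05). DNAJC12, a co-chaperone of aromatic amino acid hydroxylases, was low, at 3.01, 3.52 and 3.64 CPM in puro, 0.293, 0.684 and 0.468 in set 2 and 0.733, 1.15 and 0.863 in set 3. All knockdown libraries were below puro, with -2.79 (SE 0.32, adjusted p = 2.37e-08) in set 2 and -1.88 (SE 0.3, adjusted p = 4.94e-06) in set 3. DNAJC7, which binds both HSP70 and HSP90, had -0.20 (adjusted p = 0.0213) in set 2 and -0.11 (adjusted p = 0.19) in set 3. The DNAJC7 call was lost without puro replicate 2 (adjusted p = 0.0774), puro replicate 3 (0.0685), set 2 replicate 1 (0.104) or set 2 replicate 2 (0.072), and the set 3 value passed without set 3 replicate 1 (-0.18, adjusted p = 0.0251). DNAJC19, of the mitochondrial import motor, had -0.15 (adjusted p = 0.121) and 0.29 (adjusted p = 0.00447).

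The cytosolic chaperonin TRiC is built of rings of 8 different subunits and folds actin and tubulin. In puro the 8 genes TCP1, CCT2 to CCT5, CCT6A, CCT7 and CCT8 stood between 175 FPKM (CCT2) and 362 FPKM (CCT5), a 2.07-fold range. In set 2, 7 of the 8 fell, where 29.9% of all genes were lower. CCT6A was not called, and the median log2 fold change was -0.39. CCT7 stood at 682, 676 and 736 CPM in puro, 422, 461 and 460.0 in set 2 and 652, 666 and 611 in set 3, the largest fall of the 8 at -0.64 (SE 0.064, adjusted p = 1.82e-09). CCT5 stood at 1367, 1365 and 1500.0 CPM in puro, 965, 1031 and 1082 in set 2 and 1409, 1240.3 and 1182 in set 3, with -0.46 (adjusted p = 2.27e-06) in set 2. CCT2 had -0.39 (adjusted p = 0.000138), CCT8 -0.33 (adjusted p = 0.000367) and TCP1 -0.28 (adjusted p = 0.000192). CCT6A stood at 921, 979 and 1002 CPM in puro, 887, 929.5 and 972 in set 2 and 1152, 1028 and 954 in set 3, where set 2 overlapped puro. In set 3 only CCT4 of the 8 was called, at -0.19 (adjusted p = 0.00779 by edgeR). Over all genes 27.6% were lower and 28.0% higher there, and the median of the 8 was 0.00095. None of the 8 was called lower in set 3 without puro replicate 3, 2 were without set 3 replicate 1, and 3 were with library totals. CCT5 in set 3, at -0.14 (adjusted p = 0.0799), became -0.22 (adjusted p = 0.00304) without set 3 replicate 1. Set 3 was called above set 2 for all 8 (median 0.35), where 29.8% of all genes were higher. The 8 became 7 without set 3 replicate 1, and 5 with library totals as the scaling. CCT6B, a testis-type copy of CCT6A, is not among the 8 and stayed under 3 CPM. It was called lower in set 3 than in puro (-1.11) and than in set 2 (-1.39).

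The mitochondrial chaperonin consists of HSPD1 (HSP60, chromosome 2, 197486581 to 197516737, minus strand) and its lid HSPE1 (HSP10, chromosome 2, 197499994 to 197503457, plus strand), whose genes lie head to head. HSPD1 stood at 1667, 1745 and 1760.0 CPM in puro, 953, 1052 and 1085 in set 2 and 1933, 1666 and 1572 in set 3. Set 2 was far below the rest, and set 3 overlapped puro. The test gave -0.74 (SE 0.071, adjusted p = 8.88e-10) in set 2 and -0.00032 (SE 0.071, adjusted p = 0.997) in set 3. HSPE1 stood at 90.4, 61.9 and 62.6 CPM in puro, 39.8, 47.9 and 48.9 in set 2 and 103, 94.3 and 88.4 in set 3. All set 2 libraries were below puro, while set 3 overlapped puro replicate 1, which stood well above the other puro libraries. The values were -0.65 (SE 0.11, adjusted p = 7.76e-06) and 0.41 (SE 0.11, adjusted p = 0.00165). Both genes fell in set 2, and set 3 exceeded set 2 by 0.74 (adjusted p = 8.66e-10) for HSPD1 and 1.06 (adjusted p = 2.11e-09) for HSPE1. Exons of HSPE1 overlap those of HSPD1 on the other strand and those of the readthrough gene HSPE1-MOB4, and the strand setting of the counting is not given in the sources used here.

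**Figure D5:**
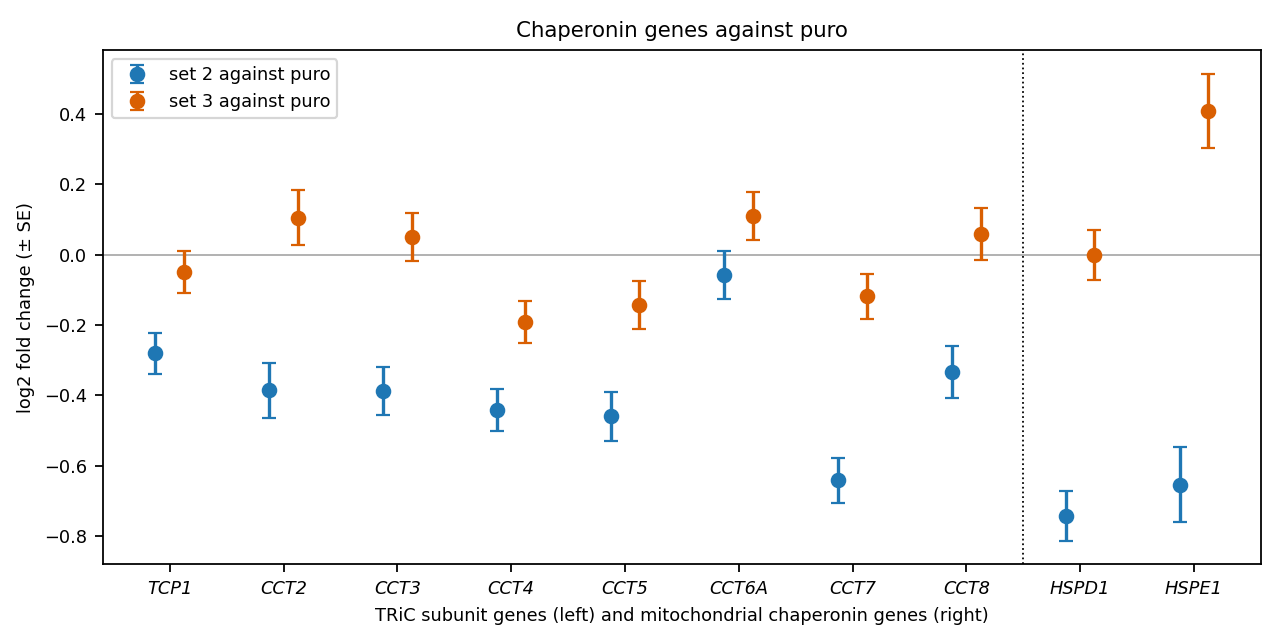
Log2 fold change (points) with its standard error (bars) of the 8 TRiC subunit genes and the mitochondrial chaperonin genes HSPD1 and HSPE1, for set 2 and set 3 against puro. Each set 2 point lies below the set 3 point of the same gene, and CCT6A alone is near 0 in set 2.

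Grouped by textbook regulation, 18 members were listed as heat-inducible targets of HSF1. These were HSPA1A, HSPA1B, HSPA4L, HSPA6, HSPA8, HSPB1, HSPB8, HSPH1, HSP90AA1, HSP90AB1, DNAJA1, DNAJB1, DNAJB4, DNAJB6, HSPD1, HSPE1, TCP1 and CCT2. The list is a choice, made with earlier results of these data known. It includes HSPA8 and HSP90AB1, called constitutive above, and no TRiC gene but TCP1 and CCT2. In set 2, 12 of the 18 were lower, against 29.9% of all genes, and 3 were higher (HSPB8, DNAJB4 and DNAJB6), against 30.0%. The median was -0.57. In set 3, 7 were higher and 4 lower, against 28.0% and 27.6%, and the median was 0.12. The set 3 median was 0.0081 without set 3 replicate 1. The 7 higher became 5 without puro replicate 2 or set 3 replicate 2, and the 4 lower became 2 without puro replicate 3. All 18 log2 fold changes of set 3 against set 2 were above 0, with a median of 0.69, and 15 were called higher by edgeR (29.8% of all genes were), HSPA6, DNAJB4 and DNAJB6 being the others. That count was also 15 without set 3 replicate 1, and 11 with library totals as the scaling. The sign did not hold in every alternative, where values reached -0.052 for DNAJB4 and -0.096 for DNAJB6. The 7 members with the 3-unit heat shock element, among them the 6 sequences printed above, ran from -0.77 (DNAJA1) to 0.83 (DNAJB6) in set 2, with 3 lower and 1 higher. Members with a match thus included genes that fell, rose or were not called. Relative to the RefSeq start of its window, the DNAJA1 match lies 3 to 15 bases after, and the other matches printed above lie before theirs. By the GENCODE gene coordinates, which can begin further upstream, all of these but the HSPA5 match lie inside the gene.

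The 13 ER members held calls in both directions in each set. In set 2, 6 were higher (HSPA5, HSP90B1, DNAJB9, DNAJB12, DNAJB14 and DNAJC3) and 4 lower (HSPA13, DNAJC10, DNAJC16 and DNAJC18). In set 3, 4 were higher (HSPA5, HSP90B1, DNAJC10 and DNAJC25) and 3 lower (DNAJB9, DNAJC16 and DNAJC18). Over all genes, 30.0% were higher and 29.9% lower in set 2, and 28.0% and 27.6% in set 3. The set 3 counts and the 4 falls in set 2 thus lie near the background. The set 3 counts became 2 and 2 without puro replicate 3 or without set 3 replicate 2. HSPA5 and HSP90B1 hold the printed ER stress element. HSP90B1 was higher in each set, while HSPA5 was higher in set 2 and its set 3 call was lost in 10 of 19 alternatives. DNAJB9, or ERdj4, an early target of the unfolded protein response, stood at 15.9, 15.1 and 17.4 CPM in puro, 20.0, 22.3 and 23.3 in set 2 and 11.1, 10.5 and 9.40 in set 3. It lay above puro in set 2 and below puro in set 3 in every library. The changes were 0.44 (SE 0.1, adjusted p = 0.000466) and -0.65 (SE 0.1, adjusted p = 6.18e-06), and the sets differed by -1.09 (SE 0.1, adjusted p = 5.82e-10). DNAJB14, of the ER membrane, had 0.49 (adjusted p = 1.39e-05) and -0.11 (adjusted p = 0.291), and DNAJB11, or ERdj3, had -0.13 (adjusted p = 0.113) and 0.072 (adjusted p = 0.388). Of the 10 mitochondrial members, 4 fell and 1 rose in set 2, and 2 rose and 2 fell in set 3, where the falls became 1 without puro replicate 1 or 3 or set 3 replicate 2 or 3.

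Chaperone regulators and partners outside the families were examined as a list of 56 genes, 54 of them tested. In set 2, 29 were lower and 12 higher (median -0.19), and in set 3, 16 were lower and 17 higher (median 0.032). Over all genes 29.9% were lower and 30.0% higher in set 2, and 27.6% and 28.0% in set 3, so the set 3 counts lie near the background. HSF1 itself stood at 152, 134 and 144 CPM in puro, 125, 120.2 and 116 in set 2 and 140.2, 163 and 168 in set 3. It was lowest in set 2, with -0.25 (adjusted p = 0.00388), and gave 0.13 (adjusted p = 0.118) in set 3. The 16 tested genes listed as HSP90 co-chaperones held 11 falls and 2 rises in set 2. Set 3 was called above set 2 for 10 of the 16, where 29.8% of all genes were higher. Both the 11 and the 10 include TRAP1, which is itself an HSP90 protein, of mitochondria. FKBP4, an immunophilin that joins HSP90 in steroid receptor complexes, stood at 354, 346 and 378 CPM in puro, 89.1, 85.4 and 89.5 in set 2 and 346, 362 and 365 in set 3. Its set 2 libraries were far below the rest, at -2.03 (SE 0.064, adjusted p = 3.48e-19), against -0.0072 (adjusted p = 0.932) in set 3. PTGES3, or p23, had -0.63 (adjusted p = 7.87e-10) and -0.075 (adjusted p = 0.292). UNC45A, a chaperone of myosin, rose in both sets, at 1.00 (adjusted p = 4.37e-12) and 0.97 (adjusted p = 9.81e-12).

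Of 16 HSP70 co-chaperones, 7 were lower and 3 higher in each set, where 27.6% to 30.0% of all genes were in each direction. HSPBP1, a nucleotide exchange factor of HSP70, stood at 87.0, 73.6 and 85.3 CPM in puro, 24.3, 28.4 and 27.6 in set 2 and 74.8, 87.0 and 83.8 in set 3. It was low in every set 2 library, with -1.61 (adjusted p = 4.21e-15) against -0.0020 (adjusted p = 0.986). BAG2, which inhibits the ubiquitin ligase CHIP, stood at 50.9, 54.4 and 54.9 CPM in puro, 23.4, 26.6 and 28.0 in set 2 and 80.4, 72.8 and 72.9 in set 3, below puro in set 2 and above it in set 3, with -1.04 (adjusted p = 9.63e-12) and 0.50 (adjusted p = 3.34e-06). ST13, or Hip, fell in both sets, at -1.07 (adjusted p = 5.15e-14) and -0.57 (adjusted p = 1.41e-08). STIP1, or HOP, which links HSP70 to HSP90, did too, at -0.64 (adjusted p = 4.28e-10) and -0.36 (adjusted p = 1.06e-05). BAG3, the partner of HSPB8, had -0.22 (adjusted p = 0.00816) and -0.25 (adjusted p = 0.00288). SERPINH1, the collagen chaperone HSP47, had -1.04 (adjusted p = 3.69e-13) in set 2 and 0.37 (adjusted p = 2.68e-05) in set 3.

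With the columns of each knockdown sample summed, so that 3 puro samples stood against 3 shIGF2BP2 samples, 34 of the 73 members were lower and 15 higher, against 29.2% and 28.8% of 13518 genes (58.0% in all). The rises of HSP90AA1 (0.46 (adjusted p = 1.57e-06)), HSP90B1 (0.40 (adjusted p = 4.03e-07)), DNAJB6 (0.83 (adjusted p = 1.09e-11)) and HSPB8 (1.43 (adjusted p = 1.02e-10)) remained called by edgeR. The HSP90AA1 value averages a set 3 rise of 0.85 with a set 2 value that was not called. HSPA1B, at -0.29 (adjusted p = 0.000138), and HSPE1, at -0.045 (adjusted p = 0.714), averaged a set 2 fall with a set 3 value above puro, and HSPE1 gave 0.16 (adjusted p = 0.0138) without puro replicate 1. If the first number in the column names is read as the sample number instead, 3 puro samples stand against 2 knockdown samples. Then 3 members were higher, DNAJB6 (0.85, adjusted p = 0.00777), HSPB8 (1.45, 0.0217) and DNAJB13 (2.40, 0.0484), and 2 lower, HSPA4L (-0.98, 0.0147) and DNAJC12 (-2.26, 0.0176).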

How the data were processed

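Per the submitters' processing notes, the tools were fastp 0.23.2, STAR 2.7.10a, featureCounts and DESeq2, with the genome build hg38. The deposited counts are whole numbers of reads for each gene symbol. FPKM values, also deposited by the authors, are those counts divided by gene length and library total. Which annotation release and strand setting were used, and how multimapping reads were handled, is unknown from the labels.

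After filterByExpr and TMM scaling, all genes were tested with edgeR 4.0.16 (quasi-likelihood, R 4.3.3), in 1 fit of 9 columns and in 1 of 6 samples with the columns of a sample summed. Both fits estimate the spread over all their columns. Adjusted p-values are by Benjamini-Hochberg, and CPM uses TMM library sizes. Alternatives were DESeq2 1.42.0, limma 3.58.1 on log2(FPKM + pseudocount of 1 or 0.1) and on voom weights, other scalings and filters, an FDR of 0.01, a replicate block and each library left out. The edgeR step was tested on simulated counts. Coordinates are GENCODE v29 (GRCh38).

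Members named in full were 25 fixed genes plus, per comparison, the 5 largest rises and 5 largest falls with a mean of at least 5 CPM, an FDR under 0.05 and no overlap. Other members and partner genes given by name were chosen after their values were seen. The members and lists were chosen with earlier results of these data known. Exons of CCT4, CCT6B, DNAJB1, DNAJB7, DNAJB9, DNAJB11, DNAJC2, DNAJC5G, DNAJC7, DNAJC9, DNAJC11, DNAJC14, DNAJC16, DNAJC17, DNAJC30, HSP90AA1, HSPA12A, HSPA14, HSPB2, HSPD1, HSPE1 and TCP1 overlap another gene of the table on the other strand, so their counts are uncertain to that extent. On the same strand, exons of DNAJB4, DNAJC4, DNAJC9, DNAJC25, DNAJC25-GNG10, HSPB2 and HSPE1 overlap another gene of the table, which no strand setting separates. Partner genes were not examined for overlaps.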

Additional observations from a re-analysis of the deposited data

Results flagged for a closer look

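The change against puro differed between set 2 and set 3, by edgeR's quasi-likelihood test of set 3 against set 2 with Benjamini-Hochberg adjustment, for 34 of the 39 members named in full. Of all genes tested, 60.7% differed, and 10 of the 39 were picked for the size of this difference, so nothing is read from that count. The values below are log2 fold changes of set 3 against set 2. The spread behind each test was estimated over all 9 libraries.

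Among HSP70 and HSP110 genes, set 3 was above set 2 by 1.40 for HSPA12A, 1.18 for HSPA1A, 1.18 for HSPA1B, 0.64 for HSPH1, 0.37 for HSPA4, 0.30 for HSPA8, 0.24 for HSPA4L and 0.23 for HSPA9. It was below set 2 for HSPA14 (-0.71) and HSPA5 (-0.27). The cytosolic HSP90 genes differed by 0.88 (HSP90AA1) and 0.45 (HSP90AB1), and the small heat shock genes by 0.93 (HSPB1) and 0.77 (HSPB8).

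The chaperonin genes differed by 1.06 (HSPE1), 0.74 (HSPD1), 0.49 (CCT2), 0.39 (CCT8), 0.32 (CCT5) and 0.23 (TCP1). Among DNAJ genes, set 3 was above set 2 by 0.99 for DNAJC10, 0.90 for DNAJC17, 0.88 for DNAJA1, 0.70 for DNAJB5, 0.66 for DNAJC18, 0.60 for DNAJC2, 0.21 for DNAJB1 and 0.16 for DNAJA2. The DNAJA2 call was lost when any 1 set 2 library or set 3 replicate 2 or 3 was left out (adjusted p = 0.0652 to 0.138), and the HSPA4L call without set 2 replicate 1 or 2 or set 3 replicate 1 (0.0518 to 0.151). With library totals as the scaling, HSPA8, HSPA9, HSPA4L, TCP1, DNAJB1 and DNAJA2 were no longer called (0.067 to 0.671). It was below set 2 for DNAJB9 (-1.09), DNAJC3 (-0.85), DNAJC30 (-0.78), DNAJB14 (-0.59), DNAJC8 (-0.39) and DNAJB2 (-0.32). IGF2BP2 stood at 31.2% of puro in set 2 and 43.9% in set 3, and the part of that difference in these values was not tested.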

How the results depend on the processing

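Counts of called members stayed within 1.5 times under every other scaling, filter, tool, threshold, left-out library and the replicate block, for all 4 comparisons. Over these settings set 2 gave 13 to 19 higher and 31 to 36 lower, set 3 gave 14 to 20 and 12 to 23, and set 3 against set 2 gave 29 to 43 and 10 to 18. The exception was the summed comparison with the first number read as the sample number, which gave 3 higher and 2 lower in place of 15 and 34. That reading leaves 2 knockdown samples. Replicate numbers did not pair the libraries, since deviations of same-numbered libraries correlated across genes at -0.103 to 0.0387 between puro and a set. Same-numbered columns of set 2 and set 3, which the reading of the last number takes as 1 sample, correlated at -0.0942, 0.00408 and -0.0723, which gives that reading no support. With the replicate block, 15 members were higher and 33 lower in set 2, and 18 and 17 in set 3. That fit ended the calls of HSPA5 (adjusted p = 0.0798) and HSP90AB1 (0.0838) in set 3, DNAJC7 in set 2 (0.0501), DNAJA2 between the sets (0.0796) and CCT2 in the summed comparison (0.0524), by edgeR. For 39 members and IGF2BP2, 2794 of 2960 repeats stayed on the same side of the threshold without reversing a call, 144 lost a call, 21 gained one and 1 reversed. In 48 of the 2794, all uncalled, the sign differed from the reported one. HSPE1 in the summed comparison ran from -0.13 to 0.16 as single samples were left out, and was 0.16 (adjusted p = 0.0138 by edgeR) without puro replicate 1 against -0.045 (0.714) with all samples. Calls lost in 5 or more settings were DNAJA2 (12 settings) and HSPA4L (7) between the sets, HSPA5 (10), HSP90AB1 (7), HSPA1A (5) and DNAJC18 (5) in set 3, DNAJC7 in set 2 (9), and CCT2 (9), CCT8 (8), HSPA9 (8) and DNAJC7 (6) in the summed comparison. DNAJC12, DNAJB13 and HSPA6 stood under 5 CPM, which limits their precision.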
